A study of Caenorhabditis elegans with 2 samples.

Results

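The autosomal promoter peaks of NHR-10 are 389 regions of the authors' optimal ChIP-seq list, which holds 754 regions on the 5 autosomes and 240 on X. They were chosen by position: the summit had to fall no more than 1000 bp before or 200 bp after the start of any protein-coding transcript, a span called the promoter window here. They made up 51.6% of the autosomal optimal regions (Clopper-Pearson 95% interval 48.0 to 55.2%), and the other 365 had no such start in reach. Starts inside a gene counted too, and with only the outermost start of each gene 321 autosomal peaks qualified. The regions come from whole Caenorhabditis elegans at the L4 larval stage, males and females pooled, of strain OP239. That strain carries the inserted transgene wgIs239, an eGFP-tagged NHR-10, with the mutation unc-119(ed3) on III. Both libraries, biological replicates 1 and 2, are of this 1 group, so no condition, untagged strain or second factor was compared. The labels give neither the promoter of the transgene nor the cells that express it, and name the antibody target as nhr-10 with the chromatin pulled down as eGFP-nhr-10. All lists were made against the same control alignment, per the deposited descriptions. Depth is unknown, since only signals and no counts of reads are listed. A gene is called bound here where a summit of these peaks lies in its window, and 458 of the 17242 autosomal protein-coding genes were bound, a background of 2.66%. Among autosomal regions of the pooled list with the summit in a window, 7.41% were optimal.

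NHR-10 belongs to the nuclear hormone receptors, transcription factors with a zinc-finger DNA-binding domain and a pocket that in some family members binds a small lipid-like ligand. The family is greatly enlarged in nematodes, and many members act on metabolic genes in the intestine. NHR-10 is known in C. elegans for switching on the propionate shunt, an alternative route for breaking down propionate when vitamin B12 is low, in a circuit in which it acts upstream of NHR-68. In worms many genes lie close together, either head to head, where 1 stretch of promoter DNA serves genes that point away from each other, or as operons, where a single promoter drives a row of genes on the same strand.

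The sequences below show the 61 bases centred on the summit of the strongest peaks that overlap no annotated exon, since what these summits share is a matter of letters. All are read on the + strand of ce11 (WBcel235, RefSeq genome sequence). Capitals mark TGATAA, CTGCGTCT or AGCGTGTT on either strand, so that AACACGCT, TTATCA and AGACGCAG are the same letters read from the other strand. The first 6 are the strongest such summits, followed by the next head-to-head pair, 2 further summits with TGATAA and 3 with CTGCGTCT.
rpl-3, III:3867553-3867613: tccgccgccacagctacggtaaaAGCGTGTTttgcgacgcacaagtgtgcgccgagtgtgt
tasp-1 and K01G5.10, III:10759236-10759296: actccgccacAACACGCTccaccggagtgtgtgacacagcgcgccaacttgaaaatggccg
H12C20.7 and nhr-68, V:11573055-11573115: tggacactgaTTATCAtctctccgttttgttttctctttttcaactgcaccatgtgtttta
Y17G9B.5 and rpl-20, IV:4750038-4750098: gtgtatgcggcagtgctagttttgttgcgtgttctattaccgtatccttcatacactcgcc
cdc-48.1, II:10563540-10563600: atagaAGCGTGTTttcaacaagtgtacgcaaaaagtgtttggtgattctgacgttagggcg
C05C10.3, II:9937835-9937895: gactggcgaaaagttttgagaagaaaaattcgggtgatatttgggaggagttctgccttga
iff-2 and F54C9.14, II:8561395-8561455: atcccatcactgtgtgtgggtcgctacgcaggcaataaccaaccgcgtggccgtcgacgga
F31F7.1, V:6276253-6276313: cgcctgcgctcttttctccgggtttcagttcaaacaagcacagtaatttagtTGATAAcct
pyc-1, V:11822741-11822801: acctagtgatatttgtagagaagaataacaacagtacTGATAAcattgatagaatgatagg
zfp-1, III:8802108-8802168: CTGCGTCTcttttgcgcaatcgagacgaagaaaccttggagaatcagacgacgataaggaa
sec-61.G and F32D8.13, V:10897323-10897383: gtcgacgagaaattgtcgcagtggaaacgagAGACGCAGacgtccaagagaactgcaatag
drr-2 and set-16, III:13643706-13643766: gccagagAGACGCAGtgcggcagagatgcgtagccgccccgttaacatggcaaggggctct

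The authors' pooled signal, whose scale the sources do not give, ran from 49.7 to 333.1 over the 389 peaks with a median of 64.5 and quartiles of 54.4 and 82.8. The lower bound comes from the list itself, since the optimal regions are those of highest signal in the pooled list. The median was 63.0 for the 365 autosomal peaks outside windows and 63.6 for the 98 promoter peaks of X.

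The strongest promoter peak was that of rpl-3, a gene of the large ribosomal subunit, 271 bp before its start, with a pooled signal of 333.1. In the replicates' own lists its signal was 172.7 in replicate 1, the highest there, and 161.3 in replicate 2, at rank 2. The next lay between tasp-1, the gene of an aspartase-type protease, and K01G5.10, with a pooled signal of 301.9, and 152.8 in replicate 1 and 149.4 in replicate 2, at rank 4 in both. The peak between H12C20.7 and nhr-68, the receptor that acts downstream of NHR-10, followed with a signal of 261.9 and ranks of 8 in replicate 1 and 9 in replicate 2. Each of these was high in both libraries.

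Then came the peak between Y17G9B.5 and rpl-20 with a signal of 214.4, and that at cdc-48.1, which encodes the AAA ATPase that unfolds ubiquitinated proteins, with 200.5. C05C10.3 (193.9), srh-2 of a chemoreceptor family (188.9), rpl-35 (184.5) and egg-5, which acts in the egg-to-embryo transition (175.0), followed. Further down, the 25 strongest held iff-2, the gene of the translation factor eIF5A (162.3), and zfp-1, a PHD-finger chromatin gene (159.5). They also held rpl-15 (157.7), the F-box gene fbxb-72 (152.2), and the pair of tag-340 and nhl-2, an RNA-binding TRIM-NHL gene (150.8). Genes for the translocon subunit sec-61.G (149.2), the corepressor drap-1 (145.5) and the alcohol dehydrogenase adh-1 (145.5) were next.

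F59C6.18 (140.5), tos-1 (139.7), the pair of drr-2 and the histone methyltransferase gene set-16 (138.8), H41C03.3 (133.5) and the acetyltransferase gene cbp-1 (133.0) came after these. The list of 25 ended with hsp-60 and Y22D7AL.10 (130.5), kin-14 (125.7) and cox-5B, a subunit gene of cytochrome c oxidase (124.1). Of these 25 summits, 20 were intergenic, 23 lay upstream of the nearest start and 8 lay in windows of genes on opposite strands. All 25 ranked within the first 108 regions of replicate 1 and the first 139 of replicate 2.

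Region width went with signal. In 365 of the 389 peaks (93.8%) the region had the same width of 424 bp, and the other 24 were narrower, at 107 to 351 bp with a median of 193 bp. The 24 narrow regions had a median signal of 154.9 (range 74.8 to 333.1), and the 365 of 424 bp one of 61.8 (49.7 to 150.8). Narrow regions made up 20 of the 25 strongest peaks, and all 24 were among the strongest regions of both replicates, counting as many regions of each as the optimal list holds. The peak caller that set these widths is not given in the sources used here, and 23 of the 389 overlapped another optimal region.

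**Figure D1:**
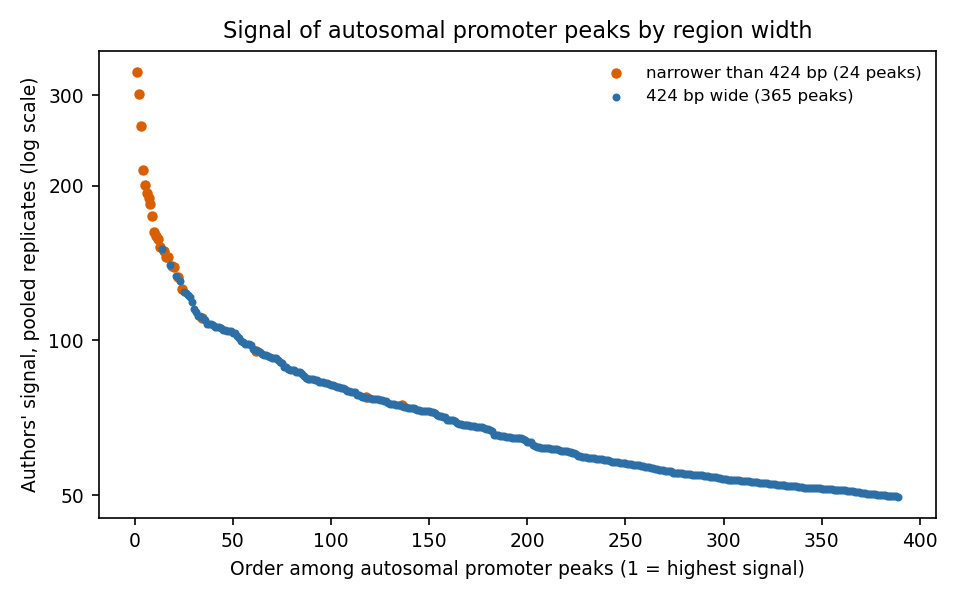
Pooled signal of the 389 autosomal promoter peaks (vertical axis, the authors' signal, log scale) against their order from the highest (horizontal axis), with regions narrower than 424 bp in orange and regions of 424 bp in blue. The 24 narrow regions lie mostly at the left, among the 25 strongest.

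Summits lay close upstream of transcript starts. The median signed distance to the nearest start was -222 bp (quartiles -497 and -85 bp, range -986 to 160 bp, negative meaning upstream). Upstream of the start lay 353 summits (90.7%, interval 87.4 to 93.4%), against 80.5% of all autosomal window bases. The densest 100 bp were those from 200 to 100 bp upstream with 76 summits, followed by the last 100 bp before the start with 71 and the stretch from 300 to 200 bp upstream with 51. Past the start the numbers were 28 in the first 100 bp and 8 in the next. Window bases were spread more evenly, with 9.03% in the densest of these bins, where 19.5% of summits lay.

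Within 200 bp of a start on either side lay 183 summits (47.0%, interval 42.0 to 52.1%), against 38.5% of window bases. In the 4864 weaker autosomal regions of the pooled list with a summit in a window the share was 45.2%, with a median distance of -239 bp. More of those lay past the start, with 10.7% in the first 100 bp and 7.63% in the next, against 7.20% and 2.06% of the promoter peaks. On X 37 of 98 promoter peaks (37.8%, interval 28.2 to 48.1%) lay within 200 bp, a share that did not pass the test against the autosomal one (odds ratio 1.46, Fisher's exact test, two-sided, adjusted p = 0.448 over 8 comparisons of peaks). Among optimal peaks above the median signal the comparison passed, with 91 of 198 autosomal and 12 of 48 X promoter peaks within 200 bp (odds ratio 2.55, exact adjusted p = 0.04). Such p-values describe the regions of these 2 libraries and not variation between animals.

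**Figure D2:**
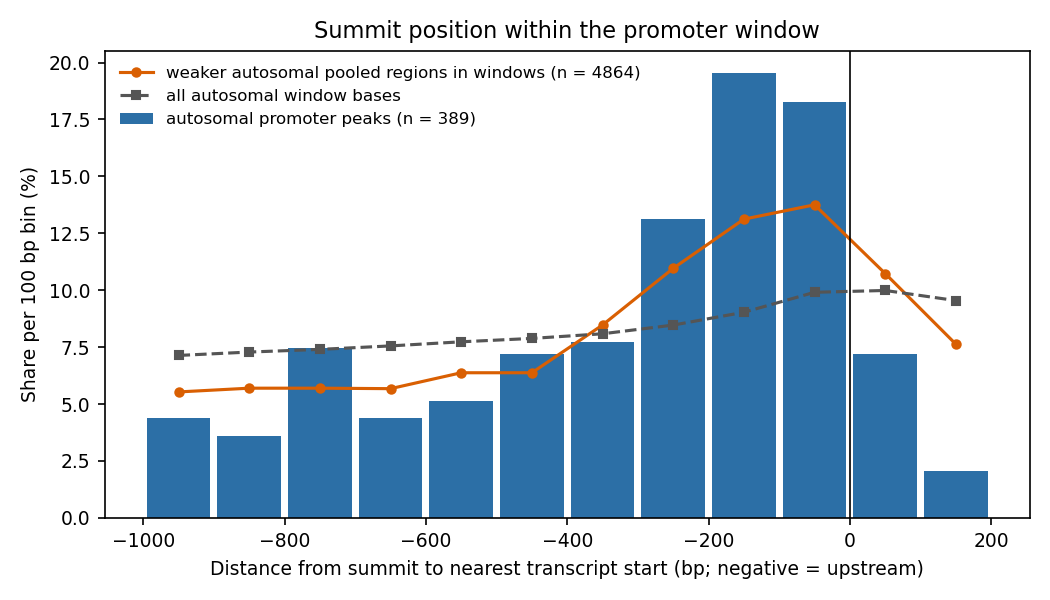
Share of summits per 100 bp (vertical axis, percent) by signed distance to the nearest protein-coding transcript start (horizontal axis, bp, negative upstream). Bars are the 389 autosomal promoter peaks, orange points the 4864 weaker autosomal pooled regions in windows and grey squares all autosomal window bases; the bars are tallest between 200 bp upstream and the start, at 76 and 71 summits.

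The 5 summits nearest to a start lay at -1 bp for acaa-2, a thiolase gene of fatty acid breakdown, 2 bp for pck-2, a phosphoenolpyruvate carboxykinase gene, -2 bp for F55H12.7, -3 bp for the developmental timing gene lin-28 and -5 bp for ndk-1, a nucleoside diphosphate kinase gene. For F55H12.7 and lin-28 this was an internal start, with the summit inside the gene. At the upstream end of the window the last peaks inside were those of F16G10.6 (-986 bp), Y62E10A.13 (-984 bp) and jun-1 (-982 bp). The first outside were nearest to ppm-2 (-1015 bp), pqn-41 (-1033 bp) and otub-2 (-1046 bp). Downstream of starts the last inside were those of C34B4.4 (160 bp), zip-2 (154 bp) and lsm-3 (142 bp), and the first outside those of lfe-2 (223 bp), Y18D10A.4 (230 bp) and srx-125 (239 bp). Peaks on either side of the limits had signals in the same range, 51.3 to 110.4 inside and 57.5 to 102.2 outside.

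By the annotation of Ensembl release 115, 257 summits (66.1%) were intergenic, 75 lay in introns, 30 in 5' UTRs, 17 in 3' UTRs and 10 in coding exons. Of the 25 strongest, the kin-14 summit lay in a 3' UTR, 221 bp upstream of a kin-14 start. Some summits lay inside the gene they were assigned to, by way of an internal start. Among these were the strongest srh-2 and zfp-1 peaks and those of drap-1, hsp-90 and C34B4.2.

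Many promoter peaks sat between genes that point away from each other. In 90 of 389 peaks (23.1%, interval 19.0 to 27.7%) the summit lay in the windows of genes on opposite strands. On X this was so for 8 of 98 promoter peaks (8.16%, interval 3.59 to 15.5%), and the difference passed the test (odds ratio 3.39, Fisher's exact test, two-sided, adjusted p = 0.00503 over 8 comparisons). The genes themselves differ in the same way between the chromosomes, since 9.90% of autosomal window bases and 3.31% of X window bases lie in windows of both strands. Divided by those shares, the peaks were 2.34-fold over window bases on the autosomes and 2.46-fold on X. The call was lost with windows of 500 bp upstream (odds ratio 2.53, exact adjusted p = 0.0704), with starts of all biotypes (1.5, exact adjusted p = 0.184) and among optimal peaks above the median signal (2.75, exact adjusted p = 0.13). In the weaker autosomal pooled regions the share was 680 of 4864 (14.0%).

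In 80 of the 90 the summit lay between the nearest starts of the pair. These starts were a median of 628.5 bp apart (quartiles 407.5 and 921 bp, range 92 to 1659 bp). The summit was within 100 bp of the nearer start in 27 pairs, and its median position was 31.2% of the interval from the nearer start. Median signal was 64.8 for the 90 peaks and 64.0 for the 291 peaks in the window of a single gene. Of the others, 8 lay in windows of more than 1 gene of the same strand, and 3 peaks in all lay in windows of 3 genes, such as that of Y71H2AM.20, cox-6B and nduc-2.

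The strongest pair was tasp-1 with K01G5.10, 785 bp apart, where the summit was 41 bp from the start of tasp-1 and 744 bp from that of K01G5.10. At H12C20.7 and nhr-68, 450 bp apart, it was 95 bp from H12C20.7 and 355 bp from nhr-68. At Y17G9B.5 and rpl-20, 462 bp apart, the distances were 172 and 290 bp. The summit was therefore closer to the partner than to nhr-68 or to rpl-20.

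Nearness to a side varied among the other strong pairs. The iff-2 and F54C9.14 starts were 935 bp apart with the summit 58 bp from iff-2, and those of rpl-15 and K11H12.8 were 814 bp apart with the summit 347 bp from rpl-15. The summit lay nearly in the middle at drr-2 and set-16, 166 and 180 bp from starts 346 bp apart, and at mig-5, a Dishevelled gene, and the chaperonin gene cct-1, 183 and 237 bp from starts 420 bp apart. The remaining pairs of the 10 strongest were tag-340 with nhl-2 (1423 bp), Y22D7AL.10 with hsp-60 (813 bp) and rps-1 with ifet-1, a translational repressor gene (768 bp). Binding of NHR-10 at such a site cannot be assigned to either gene from position alone.

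**Figure D3:**
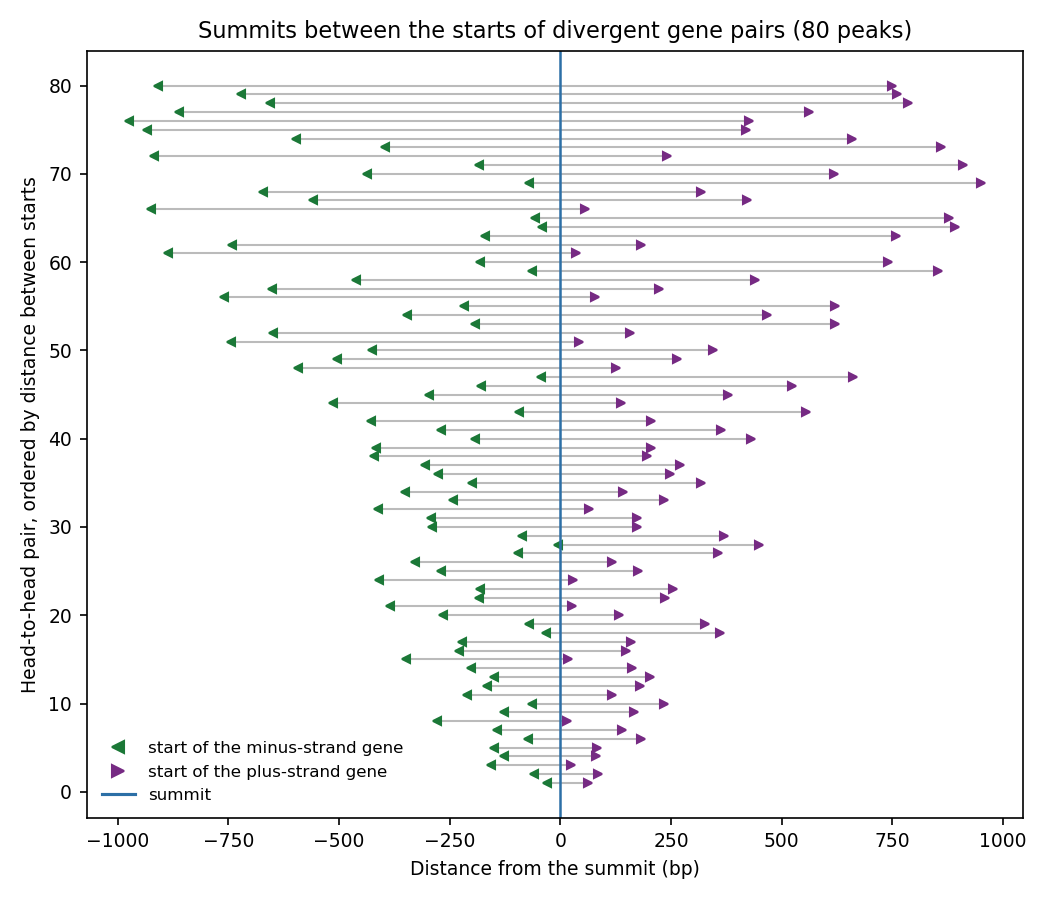
The 80 peaks whose summit lies between the nearest starts of a head-to-head pair, 1 line per peak ordered by the distance between the starts; the horizontal axis is the distance from the summit in bp, with the minus-strand start as a green and the plus-strand start as a purple triangle. The starts lie 92 to 1659 bp apart, and the summit is within 100 bp of the nearer start in 27 pairs.

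Genes that could head an operon were bound more often than genes further along. The annotation used here holds no operons, so close neighbours on the same strand stand in for them, a gene being later where it starts within 500 bp of the end of the gene before it. Of 2418 genes that open such a row 94 were bound (3.89%, interval 3.15 to 4.74%), of 3290 later genes 57 (1.73%, 1.32 to 2.24%) and of 11534 genes with no such neighbour 307 (2.66%, 2.38 to 2.97%), beside the 2.66% of all genes. With a limit of 200 bp the shares were 4.61% for opening, 1.38% for later and 2.62% for single genes, and with 1000 bp 3.71%, 1.72% and 2.81%. Counted by peak, 81 of 389 (20.8%) lay in the window of an opening gene, 51 (13.1%) only in windows of later genes and 257 (66.1%) only in those of other genes. Many of the 81 also lay in the window of an opposite-strand gene, such as those of tasp-1 with K01G5.10 and H12C20.7 with nhr-68. The part of such shared peaks in the share of bound opening genes was not tested. Summits at later genes were close to the start, with a median of -156 bp, against -222 bp for peaks at opening genes and -249 bp for single genes. Among peaks only at later genes were fbxb-72 (152.2), hphd-1, a propionate shunt gene (95.7), and xbp-1 (84.7). The hphd-1 summit lay inside the gene, 25 bp upstream of an internal start. A later gene's upstream window can lie inside the gene before it.

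Genes for protein synthesis and folding, respiration and vesicle traffic had more bound members than the background, and chemoreceptor and lectin genes fewer. All values here are counts of genes with a summit in the window, with exact binomial intervals that cover the sampling of genes only. In translation, 23 of 143 genes were bound (16.1%, interval 10.5 to 23.2%), among them 9 of 45 rpl and 8 of 31 rps genes of the large and small ribosomal subunits. Of the 25 eif genes in the same group 0 were bound, which allows a share of up to 13.7%. Chaperones had 8 of 54 (14.8%, 6.62 to 27.1%), the respiratory chain 6 of 36 (16.7%, 6.37 to 32.8%) and membrane trafficking 8 of 85 (9.41%, 4.15 to 17.7%). The mitochondrial ribosome had 0 of 70, which allows a share of up to 5.13% and so holds the background of 2.66%.

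Most bound translation genes shared their peak with a neighbour. Of the 23, 20 were bound only by peaks that also lay in another gene's window, and the gene was the nearest to the summit in 14. These are 87.0% and 60.9% of the bound translation genes, against 41.5% bound only by shared peaks and 79.0% nearest among all 458 bound genes. Only rpl-3, rpl-35 and rps-24 had a peak to themselves, 2.10% of the 143 genes, against 1.55% of all autosomal protein-coding genes with such a peak. Overlap with the window of an opposite-strand gene was found for 61.5% of the translation genes and 31.8% of all genes. The part of neighbouring genes in the count of bound translation genes was not tested.

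The strongest of the translation peaks were those of rpl-3 (333.1), rpl-20 (214.4) and rpl-35 (184.5), followed by iff-2 (162.3), rpl-15 (157.7) and rps-1 (113.5). Ribosomal protein genes reached far down the list too, to rps-24 (53.3), rps-26 (53.1) and rpl-43 (49.7). Elongation factor genes were eef-1G, with the summit 23 bp upstream of its start, and eef-2, with the summit 13 bp past it (77.6). The aminoacyl-tRNA synthetase genes kars-1 (83.6), ears-2 (61.4) and aars-1 (57.2) were bound as well, and no eif gene was. Of the 23 bound genes, 13 had a peak among the strongest regions of both replicates (56.5%, against 51.7% of all bound genes).

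Among chaperones hsp-60 of the mitochondrial matrix had 2 separate peaks. The stronger (signal 130.5), shared with Y22D7AL.10, lay 621 bp upstream of the hsp-60 gene. The other (104.5) lay inside the gene, 577 bp upstream of an internal start. The cct-1 (107.6) and cct-8 (93.2) genes encode subunits of the cytosolic chaperonin, and hsp-1 (106.2) and hsp-90 (94.2) encode major chaperones of the cytosol. Genes dnj-13 (73.2), hsp-110 (66.8) and dnj-12 (61.8) had weaker peaks. As with translation, 6 of the 8 were bound only through shared peaks, the exceptions being hsp-60 and hsp-1, and 59.3% of chaperone genes had an overlapping opposite window.

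In the respiratory chain the cytochrome c oxidase genes cox-5B (124.1), cox-5A (107.5) and cox-6B (85.2) led, with the cytochrome c gene cyc-2.1 (84.3), cyc-1 (60.0) and the ATP synthase gene atp-1 (57.0) after them. Peaks of their own were found at cox-5B, cox-5A and cyc-1. At cox-6B and cyc-2.1 the summit lay inside the gene, upstream of an internal start. The group holds only genes of the symbol prefixes used and not the whole chain. The bound genes nduc-2 (85.2) and nduf-2.2 (73.5), both in shared windows, are not in it. Trafficking genes included the translocon genes sec-61.G (149.2) and sec-61.B (80.9), the ESCRT genes vps-60 and vps-32.1 (81.9), rab-7 of late endosomes (74.0), rab-11.1 (65.0), the COPII coat gene sec-24.1 (61.5) and rab-18 (50.9). Of these 8 genes 6 were bound only by shared peaks, 55.3% of trafficking genes had an overlapping opposite window, and 2.35% had a peak of their own, against 1.55% of all genes. The vacuolar proton pump had vha-1 (87.7) and vha-13 (70.0) of 17 genes (11.8%, interval 1.46 to 36.4%). The proteasome had rpn-3 (66.8) and pas-5 (50.6) of 33 (6.06%, 0.743 to 20.2%). The pas-5 summit lay inside the snoRNA gene F25H2.15. Splicing had prp-40 (53.5) of 39 genes (2.56%, 0.0649 to 13.5%). The intervals of the pump, the proteasome and splicing hold the background of 2.66%.

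Transcription factor genes were bound mostly through peaks of their own. Here 23 of 391 were bound (5.88%, 3.77 to 8.70%), and 21 of them had a peak in no other gene's window, 5.37% of the 391 against 1.55% of all genes. At skn-1, fkh-7, hlh-30, zip-1, zip-2, nhr-31 and nhr-34 that peak lay inside the gene, upstream of an internal transcript start. The part of internal starts in this share was not tested. Only 19.2% of transcription factor genes had an overlapping opposite window. After nhr-68 (261.9) the strongest were the bHLH gene hlh-11 (115.2), the bZIP gene zip-2 (106.4), hmg-1.2 (83.9), nhr-105 (82.8) and skn-1, the Nrf factor of the oxidative stress response (81.0). Further down stood fkh-7 (79.6), the homeobox genes ceh-38 (77.0) and ceh-20 (57.7), and hlh-30, the TFEB factor of autophagy and lysosome genes (68.1). Others outside the nhr family were hmg-1.1 (61.5), klf-1 (58.5), hmg-6 (56.3) and zip-1 (51.2).

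Of 246 autosomal genes of the nhr family 11 were bound (4.47%, interval 2.25 to 7.86%), so most receptors had no promoter peak. Besides nhr-68 and nhr-105 these were nhr-135 (78.4), nhr-58 (70.0), nhr-31 (59.1), nhr-43 (57.9), nhr-291 (57.2), nhr-34 (56.0), nhr-57 (53.1), nhr-97 (51.6) and nhr-119 (51.2). At nhr-31 and nhr-34 the summit lay in an intron, 501 bp upstream of an internal transcript start of nhr-31 and 199 bp upstream of one of nhr-34. At nhr-43 it lay 5 bp past a start, and at the other 8 genes 65 to 445 bp upstream of the gene. In both replicates nhr-68, nhr-105, nhr-135, nhr-58, nhr-31 and nhr-57 were among the strongest regions. At nhr-43, nhr-291, nhr-34 and nhr-97 this held only in replicate 1, and at nhr-119 in neither. The nhr-10 gene itself (III:7112295-7115438, - strand) had no optimal or pooled summit in its window, and the nearest optimal summit lay 1343 bp from its start. That autosomal peak is outside the rule.

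In lipid metabolism 9 of 122 genes were bound (7.38%, 3.43 to 13.5%), 6 of them by a peak of their own. They were acdh-9, an acyl-CoA dehydrogenase gene (98.4), the elongase gene elo-6 (79.9), the acyl-CoA synthetase gene acs-2 (76.2), the desaturase genes fat-4 (74.1) and fat-6 (65.5), dhs-8 (73.0), dhs-21 (56.8), the peroxisomal oxidase gene acox-1.1 (54.3) and acs-7. At fat-4 and fat-6 the summit lay inside the gene, 266 bp upstream of an internal start of fat-4 and 79 bp past one of fat-6. Detoxification had ugt-20 (90.4), cyp-13A2 (68.8), ugt-49 (53.5), ugt-44 (52.0) and ugt-58 (51.2) of 171 genes (2.92%). Chromatin factors had set-16 (138.8), chd-7 (93.8), swsn-3 (62.6) and set-4 (54.8) of 50, and histones his-37 (81.9), his-61 and his-62 (a single peak, 50.9) of 68. The small groups have wide intervals, 2.22 to 19.2% for chromatin factors and 0.919 to 12.4% for histones, which hold the background.

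Most of the largest symbol families had 1 or no bound gene, the nhr family, the largest with 246 genes, being the exception. Of the 1143 genes of the chemoreceptor group 2 were bound (0.175%, interval 0.0212 to 0.631%), srh-2 (188.9) and srlf-7 (104.2), the second in a window shared with C42D4.13. The group was taken by symbols of sr followed by letters. It therefore holds the 36 srlf genes, whose role as chemoreceptors was not checked. C-type lectin genes had 0 of 237, which allows a share of up to 1.54%, str genes 0 of 188, srw 0 of 109, srx 0 of 101 and srbc 0 of 71. Among collagens col-93 (76.6) was bound of 129 genes, among F-box genes fbxa-108 (63.5) of 156 fbxa and fbxb-72 of 101 fbxb genes. The intervals of the srw, srx, srbc, col, fbxa and fbxb families hold the 2.66% of all genes, with upper ends from 3.33 to 5.39%, while those of the clec, str and srh families end below it. The cuticle group as a whole had 2 of 161 with dpy-31 (50.7; 1.24%, interval 0.151 to 4.42%, which holds the background), and lectins with lysozymes and saposins had spp-1 (53.4) of 272. In the ubiquitin group 5 of 302 were bound (1.66%), including ubc-3 (74.3), ubc-25 (70.8) and ubc-6 (68.2).

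Of the 139 symbol families with at least 10 autosomal genes, 22 had more than 1 bound gene, 29 had 1 and 88 had none. Small families with high counts were rab and ubc (3 of 17 each, 17.65%, interval 3.80 to 43.4%) and cox and sec (3 of 15 each, 20%, 4.33 to 48.1%). Another was hsp (4 of 19, 21.05%, 6.05 to 45.6%), beside the 2.66% of all genes. They were picked as high ones among the 139 families, which the intervals do not allow for. The bound rab genes had only peaks shared with other genes. Genes with a symbol were bound in 331 of 9552 cases (3.47%), and those known only by a sequence name in 127 of 7690 (1.65%).

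**Figure D4:**
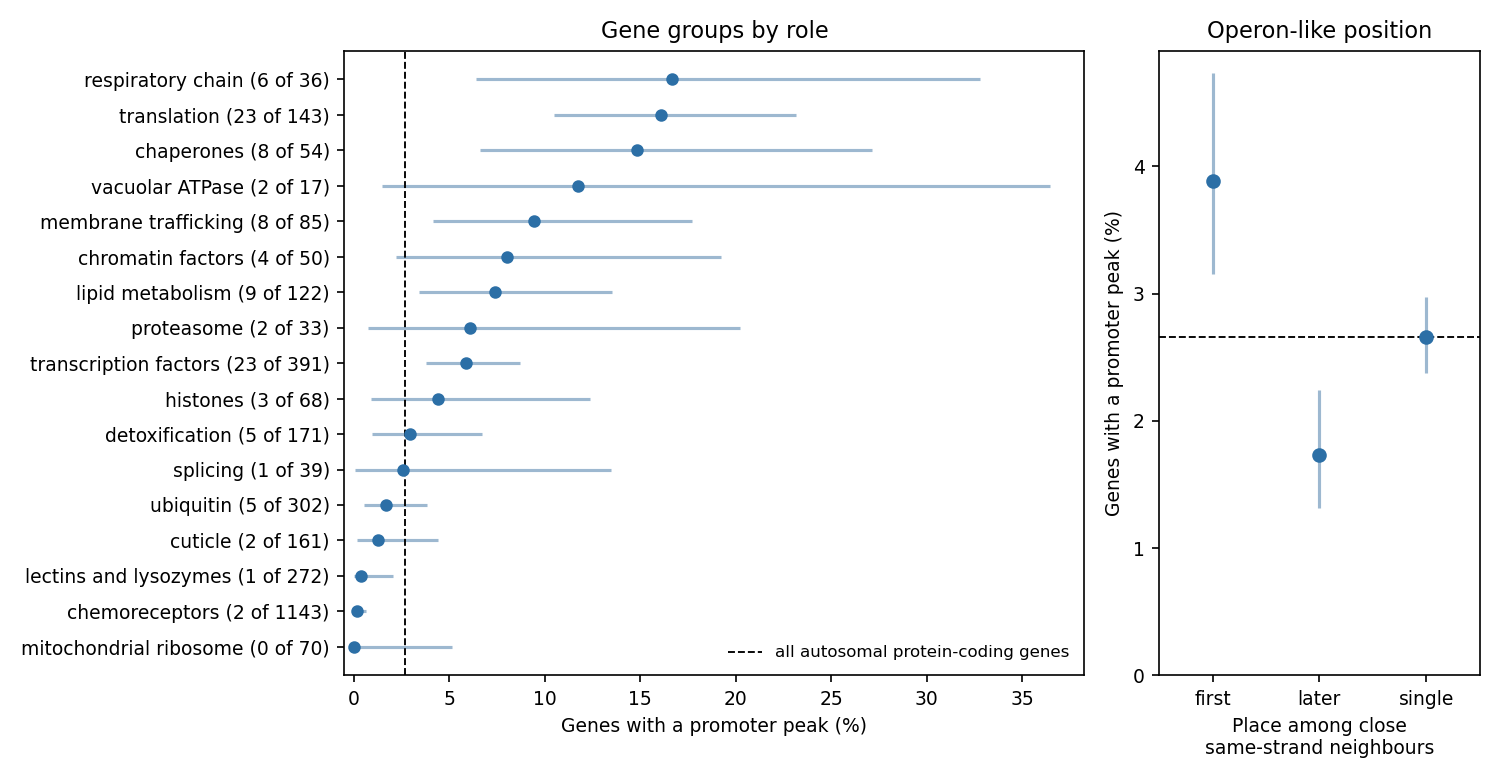
Left, percent of genes with an autosomal promoter peak in 17 groups by role (points, exact 95% intervals as lines, number bound of all in brackets). Right, the same for genes that open a row of close same-strand neighbours, later genes and single genes. The dashed line is the 2.66% of all autosomal protein-coding genes, with translation at 16.1% and the chemoreceptor group (symbols of sr followed by letters) at 0.175%.

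Several genes carried more than 1 peak. There were 28 such genes, and atx-2, din-1, srh-2 and zfp-1 had 3 each. The summits of zfp-1 lay 681, 909 and 481 bp upstream of starts of the gene with signals of 159.5, 92.8 and 55.1, and those of din-1, a corepressor partner of a nuclear receptor, 142, 812 and 787 bp upstream with 109.8, 58.1 and 57.5. At lin-28 the summits lay before different starts, 567 bp upstream of the gene and, inside it, 3 bp upstream of an internal start. At hlh-30 both lay inside the gene, 201 and 961 bp upstream of different internal starts. At cts-1, the citrate synthase gene, they lay 317 and 524 bp upstream of the same start. The pair at cts-1 overlapped the same region in each replicate, so the ranks there are shared.

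Agreement of the replicates fell stepwise from the strongest to the weakest promoter peaks. A rank is that of the strongest region of a replicate's own list that overlaps the peak by at least 1 bp, among 21319 regions of replicate 1 and 22317 of replicate 2. For 10 peaks these were the same regions as for a stronger peak. Both replicates had a region at 387 of 389 peaks. Taking the strongest regions of each replicate, as many as the optimal list holds, 198 peaks were among those of both (50.9%, interval 45.8 to 56.0%), 90 of replicate 1 only, 83 of replicate 2 only and 18 of neither. By pooled signal, this was 95 of the 97 strongest peaks, 67 of the next 97, 27 of the following 97 and 9 of the last 98. Pooled signal contains both replicates and is not independent of their ranks.

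Against other optimal peaks this share did not pass a test. Of the autosomal peaks outside windows 200 of 365 (54.8%) were among the strongest of both (odds ratio 0.855, Fisher's exact test, two-sided, adjusted p = 0.614), and of X promoter peaks 51 of 98 (52.0%, odds ratio 0.955, exact adjusted p = 0.91). The Spearman correlation of the replicates' signals was 0.317 over the 387 peaks, 0.259 over the 365 and 0.287 over the 98. These are descriptions over regions picked by pooled signal from the same 2 libraries. Among optimal peaks above the median signal the comparison with peaks outside windows passed (odds ratio 0.433, exact adjusted p = 0.04), with the promoter peaks less often in both.

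The median rank was 465 in replicate 1 and 551 in replicate 2. In 107 peaks the ranks differed more than 4-fold, in 60 with the weaker rank in replicate 2 and in 47 with it in replicate 1. The peak between the proteasome gene rpn-3 and hsp-110 ranked 114 in replicate 1 and 18429 in replicate 2, the widest gap. The peak of xbp-1, a transcription factor of the unfolded protein response, ranked 72 and 2157, and a din-1 peak 174 and 5081. Those of slc-25A42 with cfim-1 (273 and 7040) and of the Smad gene sma-2 with ugtp-1 (240 and 6147) were of the same kind.

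In the other direction C34B4.2 ranked 18268 in replicate 1 and 365 in replicate 2, and alkb-7 ranked 13959 and 291. The glutamine synthetase gene gln-3 ranked 4337 and 118, T21H3.1 10727 and 342, and the transthyretin-like gene ttr-15 9675 and 340. These 10 peaks had pooled signals from 51.1 to 84.7, so none was near the top. At F21F3.6 replicate 1 had no region, and at the peak shared by rab-18, kbp-4 and par-2 replicate 2 had none.

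**Figure D5:**
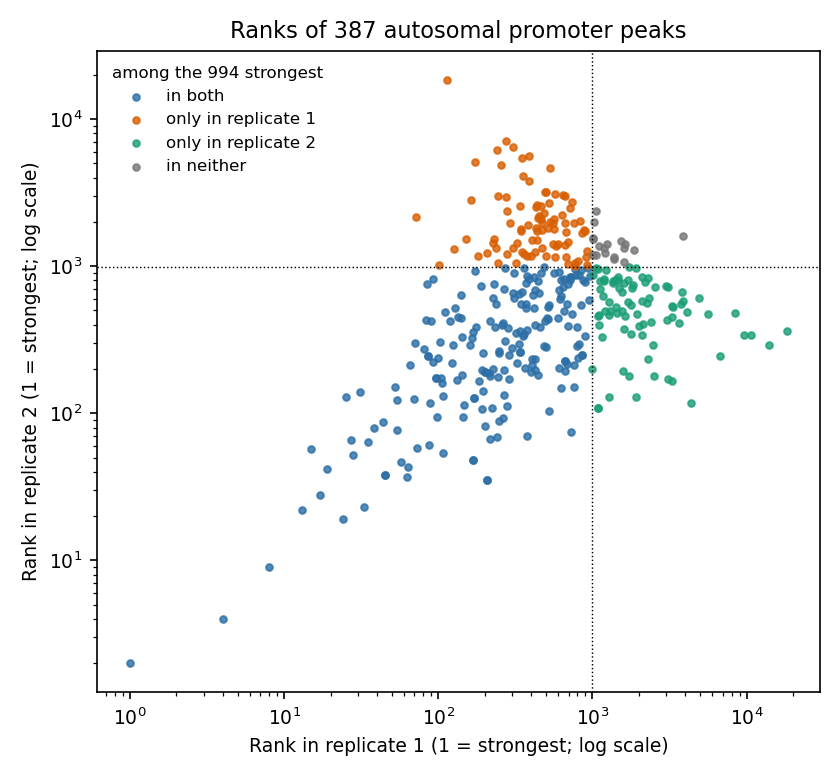
Rank in replicate 1 (horizontal, log scale) and in replicate 2 (vertical, log scale) of the 387 autosomal promoter peaks with a region in both lists; dotted lines stand at the rank equal to the length of the optimal list, and colours say in which replicate a peak is within it. The strongest peaks lie near the diagonal at the lower left, and 107 peaks differ more than 4-fold in rank.

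The bases at the summits were richer in G and C than promoter DNA in general. In the 101 bp centred on the summit the median GC content was 45.5% over the 389 peaks (quartiles 38.6 and 51.5%), 42.6% over autosomal peaks outside windows and 48.5% over X promoter peaks. It was 37.6% over the weaker pooled regions in windows and 33.7% over the 17242 windows of the same length centred 222 bp upstream of autosomal protein-coding genes. Letters were searched on both strands of these windows and their shares stand beside those of the gene windows as descriptions, since base composition differs.

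GAGAGA was found at 97 peaks (24.9%), against 6.68% of gene windows and 11.9% of weaker regions. CGTCTC was found at 59 (15.2%), against 3.39% and 6.87%, and 26 peaks held both of these. CCGCCC was found at 33 (8.48%), against 2.18% and 3.00%, and the E-box CACGTG, which bHLH factors bind, at 24 (6.17%), against 1.60% and 2.82%. AT-rich letters were rarer at the peaks, with TATAAA at 31 (7.97%), against 13.3% of gene windows, and TTTTTTTT at 20 (5.14%), against 13.0%. AGGTCA, a half-site that many nuclear receptors bind, was found at 13 peaks (3.34%), against 2.68% of gene windows and 3.25% of weaker regions, so its share was close to both. The heat shock element, alternating GAA and TTC blocks with NN between them, was found at 5 (1.29%), against 0.731% of gene windows.

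A pair of 8-letter words was picked after the sequences had been read, so their counts describe the same peaks. CTGCGTCT, which shares its last 5 letters with the first 5 of CGTCTC, was found at 41 peaks (10.5%), against 1.09% of gene windows and 3.19% of weaker regions. These peaks had signals from that of zfp-1 (159.5), sec-61.G (149.2) and drr-2 with set-16 (138.8), shown above, through hphd-1 (95.7) and nhr-58 (70.0) to dif-1 (50.1). AGCGTGTT was found at only 8 peaks (2.06%), against 0.174% and 0.308%, but 5 of these were among the 25 strongest, namely rpl-3, tasp-1, cdc-48.1, rpl-35 and rpl-15. The others were cox-5A (107.5), scc-2 (68.5) and tba-2 (64.7). No peak held both words.

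TGATAA, the GATA motif bound by the ELT factors that drive intestinal genes in this animal, was found at 63 peaks (16.2%, interval 12.7 to 20.2%), against 10.9% of gene windows and 14.5% of weaker regions. In the 25 strongest it was found only once, at nhr-68, and in the 292 weakest at 54 (18.5%). Split at the median signal, it was at 25 of the 194 stronger peaks (12.9%, interval 8.52 to 18.4%) and 38 of the 195 weaker (19.5%, 14.2 to 25.8%), and these intervals overlap. F31F7.1 (118.7) and pyc-1, the pyruvate carboxylase gene (110.8), were the next strongest with it among summits outside exons. Autosomal peaks outside windows had it in 71 of 365 cases (19.5%, odds ratio 0.8, Fisher's exact test, two-sided, adjusted p = 0.614) and X promoter peaks in 18 of 98 (18.4%, odds ratio 0.859, exact adjusted p = 0.742). With 100 bp on each side of the summit the comparison with autosomal peaks outside windows passed (odds ratio 0.631, exact adjusted p = 0.0157), with the motif rarer at promoter peaks.

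Some promoter peaks stood beside genes of small structural RNAs, which are transcribed at high levels. A tRNA, snoRNA or snRNA gene lay within 200 bp of 20 summits (5.14%, interval 3.17 to 7.83%), 12 with a snoRNA, 5 with a snRNA and 3 with a tRNA. These are counts of summits and not of RNA genes. Both summits shared by gcy-33 and cpr-9 lay by the tRNA gene F57F5.t1, and both F38E11.9 summits by the snRNA gene F38E11.11. The peaks assigned to egg-5 and to H41C03.3 had their summits inside the spliced leader RNA genes sls-2.4 and sls-2.1, 701 and 803 bp upstream of the protein-coding starts. The F59C6.18 peak lay 43 bp from the snoRNA gene F59C6.15, and the strongest din-1 peak inside the snoRNA gene F07A11.15. The assignment of these peaks to the protein-coding gene is thus uncertain. The share was 24 of 365 (6.58%) for autosomal peaks outside windows (odds ratio 0.770, Fisher's exact test, two-sided, adjusted p = 0.703) and 3 of 98 (3.06%) for X promoter peaks (odds ratio 1.72, exact adjusted p = 0.742).

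The peaks were spread over all autosomes, with 73 on I, 81 on II, 86 on III, 67 on IV and 82 on V. As a share of protein-coding genes III had most bound, at 3.94%, followed by I (3.06%), II (2.70%), IV (2.5%) and V (1.82%). Leaving out the outer 20% of each chromosome at either end, 289 summits remained (74.3%, interval 69.6 to 78.6%), against 66.2% of autosomal protein-coding starts. This share was lowest on I (67.1%) and highest on V (78.1%).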

How the data were processed

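ChIP-seq of NHR-10::eGFP in L4 larvae was used as 1 group of 2 biological replicates, as labelled. The authors deposited narrowPeak lists for ce11 whose signal column was used within lists only; its scale, peak caller and aligner are not stated there. The region lists are described as input for or output of IDR, a filter on replicate consistency, per the deposited descriptions. The 4 ce11 lists hold, beside the optimal regions, 17447 pooled, 21319 (replicate 1) and 22317 (replicate 2) regions. The ce10 lists were not used. The lists hold no read counts, so depth and the precision it gives are unknown. Starts, exons and biotypes came from Ensembl release 115 and sequence from RefSeq, both WBcel235. Shares carry Clopper-Pearson intervals. The 8 comparisons of peaks used Fisher's exact test with Benjamini-Hochberg adjustment at 0.05 (scipy 1.17.1, Python 3.11.15), tested on simulated lists. The p-values describe regions of these libraries. Gene groups were defined by symbol prefix, and figures drawn with matplotlib 3.10.9.

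Members, groups and lists were chosen with earlier results of these data known. Genes were named by rule: those at the 25 strongest peaks, the 5 largest rank differences each way, the window ends, up to 3 strongest per group, the 10 strongest divergent pairs, the 5 nearest to a start, all bound nhr genes and genes with several peaks; other genes, among them the rest of each group, were named after their values were seen, as were the words CTGCGTCT and AGCGTGTT and the count of genes with a peak of their own. Alternatives varied the window, starts, biotypes, signal, assignment, replicates and motif width.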

Additional observations from a re-analysis of the deposited data

How the results depend on the processing

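The share in opposite-strand windows against X kept its direction under every alternative run. Its odds ratio, 3.39 in the report, was 2.53 with 500 bp windows, 1.5 with starts of all biotypes and 2.75 above the median signal of optimal peaks, where the call ended in each; the last holds 198 promoter peaks in place of 389. With lists from a single replicate it was 3.04 to 5.57 and passed. Calls absent in the report appeared for position within 200 bp (2.55) and replicate support against peaks outside windows (0.433) above the median signal, and for TGATAA within 100 bp (0.631). Direction turned, with no call, for structural RNA against X with 500 bp windows (0.863) and against peaks outside windows with outermost starts (1.03), peaks above the median signal (1.06), 500 bp from the RNA gene (1.01) and without replicate 1 (0.641 to 1.10 over single replicates). It turned for TGATAA against X with 500 bp windows (1.02), peaks above the median signal (1.59), GATAA (1.29) and without replicate 1 (0.579 to 1.12). It turned for replicate support against X with all biotypes (1.02) and the 500 strongest regions (1.09), and against peaks outside windows with the 500 strongest (1.19). For regions taken from a single replicate, support meant a place among the strongest regions of the other, a different measure. Against X that measure was 1.02 for regions of replicate 2 and 0.823 for those of replicate 1. Without replicate 2 the structural RNA and TGATAA comparisons kept their direction. The cause was not tested. With starts of all biotypes the structural RNA comparisons were not run, since those genes then define windows. Counting overlapping regions once, chosen after seeing the data, left 377 peaks and the same calls. Bound genes numbered 509 by region overlap and 362 by nearest start, against 458. No paired analysis was possible because there is only 1 group.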
